A study of Homo sapiens with 6 samples.

Results

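Transcripts of 10 genes of the Eph and ephrin family were examined in T3M4, an established human pancreatic ductal adenocarcinoma cell line. The genes were taken by name from the 58735 genes of the deposited count table. They comprise 6 receptor genes (EPHA1, EPHA2, EPHA4, EPHB2, EPHB3 and EPHB4) and 4 ephrin genes (EFNA1, EFNA5, EFNB1 and EFNB2). The 6 RNA-seq libraries fell into 3 whose genotype label says that MUC16 is expressed, titled T3M4WT, and 3 whose genotype label says MUC16 knockout, titled T3M4M16. All were from cells grown without treatment. The labels do not say how the knockout was made, whether it is 1 clone, or whether replicates were cultured separately. P-values therefore cover only the spread between these libraries, which may be technical.

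Eph receptors are receptor tyrosine kinases that bind ephrins on the surface of neighbouring cells. A-class receptors mainly bind ephrin-A ligands, which are held in the membrane by a lipid anchor, and B-class receptors mainly bind ephrin-B ligands, which cross the membrane and carry a cytoplasmic tail. Contact can send a signal into the receptor cell (forward signalling) and into the ephrin cell (reverse signalling), and in epithelia the family is known for its part in cell sorting, repulsion and the upkeep of cell boundaries. EPHA2 is the family member best known from carcinomas.

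Library totals ran from 19088927 to 28612621 gene counts. MUC16, a large membrane mucin and the gene named in the labels, had 98, 144 and 90 counts in the WT-labelled libraries and 292, 504 and 323 in the knockout-labelled libraries. Its RNA thus did not fall with the label but was higher in the knockout-labelled libraries (log2 fold change 1.79 ± 0.17, SE, adjusted p = 4.79e-09). A gene-level count does not show which exons were read. Directions are given throughout as knockout-labelled against WT-labelled libraries. These counts cannot tell whether the group labels were exchanged, which would reverse every direction given here. All 7 duct epithelium markers were detected and higher in the knockout-labelled libraries. Their levels summed to 3520 to 3600 counts scaled to library size (CPM) in the WT-labelled libraries. In the knockout-labelled libraries they summed to 5530 to 5790 CPM. By the test described below, 26.7% of all tested genes were higher. Among those over 64 CPM, the range that holds every duct marker but SOX9, it was 22%. The 4 leukocyte markers summed to at most 0.467 CPM in any library, and the acinar marker CPA1 and the endocrine markers GCG and SST had 0 counts in all 6. Fibroblast markers summed to 30.6 to 34.1 CPM and 42.4 to 46.6 CPM, nearly all from COL1A1. Endothelial markers summed to 13.4 to 16.6 CPM and 19.7 to 22 CPM, mostly from PECAM1. The rise was thus not confined to duct markers: 1 of the 2 tested fibroblast markers (COL1A1) and all 3 tested endothelial markers were also higher. The part of these markers in the results below was not tested.

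Of the 10 genes, 5 were higher in the knockout-labelled libraries (EPHA4, EPHB2, EPHB3, EFNA1 and EFNB2), 1 was lower (EPHA2) and 4 did not pass the test (EPHA1, EPHB4, EFNA5 and EFNB1). Values were tested with edgeR's quasi-likelihood test, with Benjamini-Hochberg adjustment over all 16655 genes tested and a threshold of 0.05. Calls were common in this comparison: 52.6% of all tested genes passed, 26.7% higher and 25.9% lower, so 6 called of 10 lies near the background. The median log2 fold change of the 10 genes was 0.21, against 0.00 over all tested genes, and the median size of the change was 0.36 against 0.28. None of the 10 reached a 2-fold change. Of all tested genes, 8.87% both passed the test and changed at least 2-fold. The groups did not overlap for 6 of the 10 genes, nor for 59.0% of all genes tested. In bulk RNA, fewer cells that make a transcript and less of it per cell cannot be told apart.

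**Figure D1:**
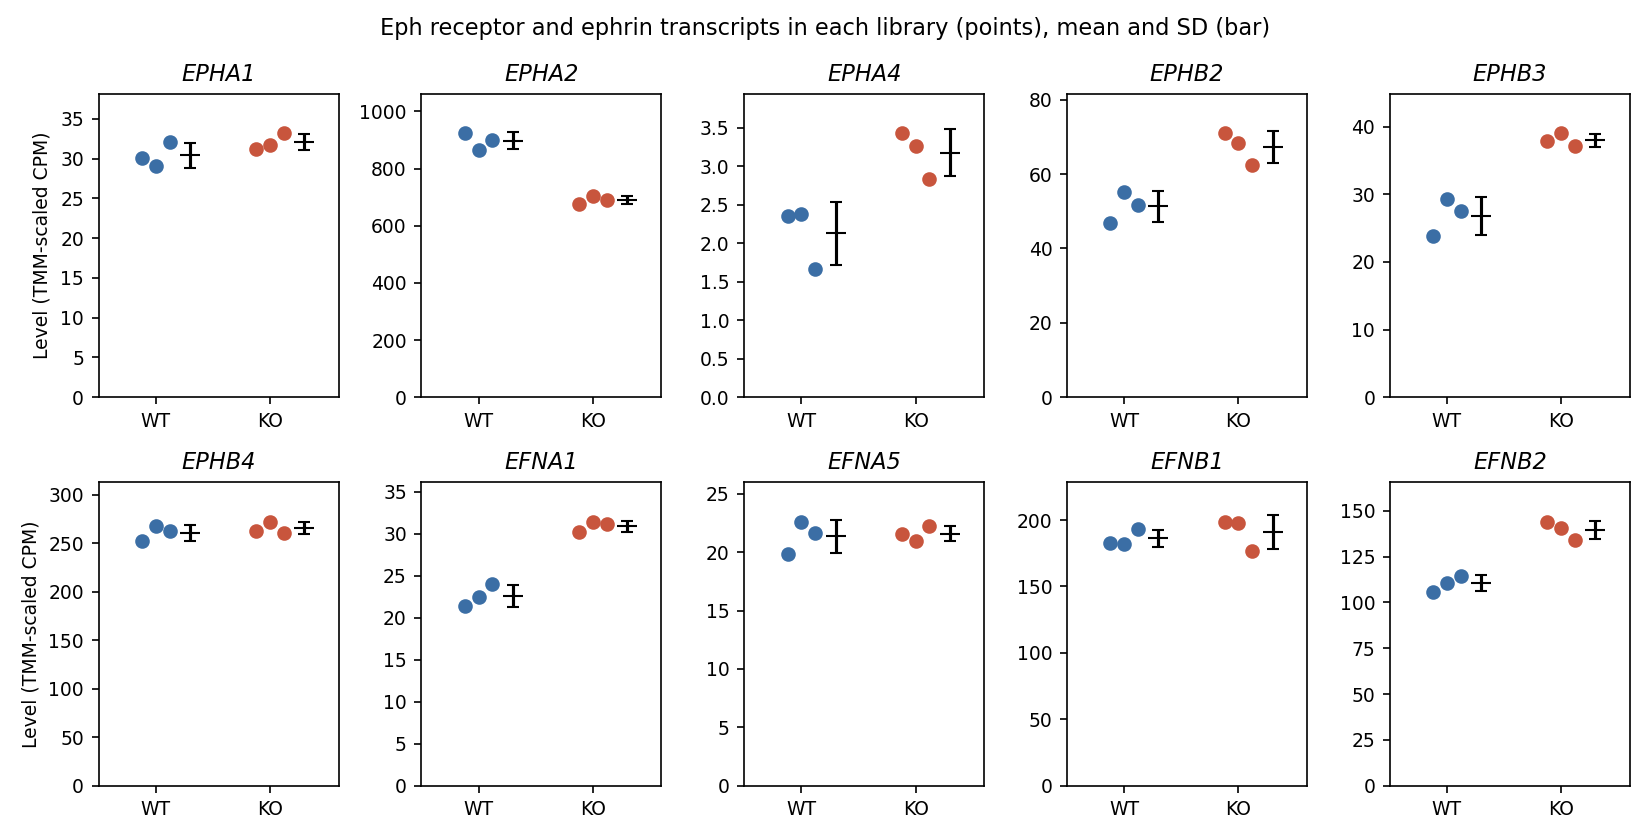
Level of each of the 10 transcripts in TMM-scaled CPM (vertical axes, each from 0), with 1 point per library, WT in blue and KO in red, and the group mean with its SD beside the points (n = 3). The groups do not overlap for EPHA2, EPHA4, EPHB2, EPHB3, EFNA1 and EFNB2, and overlap for EPHA1, EPHB4, EFNA5 and EFNB1.

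The stretches just before the gene starts are shown for the strongly expressed receptor that was lower and for 3 of the genes that were higher, since these moved in opposite directions. RefSeq promoter entries on GRCh38.p14 matched all 10 genes. The 250 bases before the RefSeq start are given 5′ to 3′ on the gene's strand for EPHA2 (chr1:16156070-16156319, minus strand), EPHB2 (chr1:22710588-22710837, plus strand), EPHB3 (chr3:184561535-184561784, plus strand) and EFNB2 (chr13:106535663-106535912, minus strand), with every match to a searched motif in capitals.
EPHA2: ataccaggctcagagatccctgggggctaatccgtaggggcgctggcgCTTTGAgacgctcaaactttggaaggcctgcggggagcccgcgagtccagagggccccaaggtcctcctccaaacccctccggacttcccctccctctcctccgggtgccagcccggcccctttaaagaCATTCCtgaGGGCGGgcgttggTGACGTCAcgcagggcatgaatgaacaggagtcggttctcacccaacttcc
EPHB2: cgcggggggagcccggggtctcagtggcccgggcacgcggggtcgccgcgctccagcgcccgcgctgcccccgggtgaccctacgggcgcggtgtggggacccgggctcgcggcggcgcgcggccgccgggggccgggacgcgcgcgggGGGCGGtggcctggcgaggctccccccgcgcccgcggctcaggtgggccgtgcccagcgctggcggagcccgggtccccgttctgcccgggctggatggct
EPHB3: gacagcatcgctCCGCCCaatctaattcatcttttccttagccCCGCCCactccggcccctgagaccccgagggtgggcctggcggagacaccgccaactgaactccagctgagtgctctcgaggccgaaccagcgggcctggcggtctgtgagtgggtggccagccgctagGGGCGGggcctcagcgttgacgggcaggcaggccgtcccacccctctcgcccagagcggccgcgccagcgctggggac
EFNB2: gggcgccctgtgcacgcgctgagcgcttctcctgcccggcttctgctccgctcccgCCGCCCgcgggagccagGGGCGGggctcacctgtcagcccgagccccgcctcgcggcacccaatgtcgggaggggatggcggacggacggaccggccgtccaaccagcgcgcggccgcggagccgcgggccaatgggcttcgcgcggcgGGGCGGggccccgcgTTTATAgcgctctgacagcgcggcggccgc

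The motifs were searched on both strands. They were the GC box GGGCGG, the TEAD motif GGAATG, the TCF/LEF core CTTTGA, the cyclic AMP response element TGACGTCA, the AP-1 motif TGANTCA, the E-box CACGTG and the TATA box TATAAA. The stretch before EPHA2 held the TCF/LEF core, the TEAD motif (on the strand opposite to the one shown), the GC box and the cyclic AMP response element. Over the 27305 promoters of the same length, these motifs occurred in 11.4%, 11.9%, 42.3% and 1.77%. Among the 10 stretches, the TCF/LEF core, the TEAD motif and the cyclic AMP response element were found before EPHA2 alone. The genes that did not pass the test thus lacked them, as did those that were higher. Only 1 of the 10 genes was lower, and any relation between motifs and direction was not tested. The GC box was present in all 10 genes, whose stretches were 43.2% (EPHA4) to 84.8% (EPHB2) G and C, against a median of 58% over all promoters. The RefSeq start of EFNA1 lies 416 bases downstream of the annotated gene start, so its searched stretch is inside the gene as located here. Only the GC box was found before EPHB2 and EPHB3. EFNB2 also held the TATA box, on the strand opposite to the one shown. That motif occurred, on either strand, in 11.1% of promoters. The AP-1 motif and the E-box were in none of the 10 stretches and in 6.6% and 6.49% of all promoters. These are matches of letters and were not tested as binding sites.

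EPHA2, an A-class receptor that binds ephrin-A1, was the most abundant family transcript per length and the only one of the 10 to fall. EPHA2 (ENSG00000142627, GRCh38 chromosome 1, 16124337 to 16156087, minus strand) was at 924, 866 and 901 CPM in the WT-labelled libraries. In the knockout-labelled libraries it was at 677, 705 and 688 CPM. Every knockout-labelled library lay below every WT-labelled library. The group means were 897 ± 29.4 and 690.0 ± 14.4 CPM (SD, n = 3 each), so EPHA2 fell by 23.1% (log2 fold change -0.38 ± 0.04, SE, adjusted p = 2.18e-08). A scaling that depends on expression level, cyclic loess, kept the call but gave a smaller log2 fold change of -0.24. Among the tested genes over 64 CPM, the range that holds EPHA2, 49.9% were called lower and 22% higher.

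EPHA4, which binds ephrins of both classes, was scarce and higher. EPHA4 (ENSG00000116106, chromosome 2, 221418027 to 221574202, minus strand) was counted 62, 64 and 37 times in the WT-labelled libraries, or at 2.35, 2.38 and 1.66 CPM. The knockout-labelled libraries held 67, 84 and 83 counts, or 3.43, 3.27 and 2.83 CPM. The groups did not overlap, but WT replicate 3 was lower than the other two WT-labelled libraries. The log2 fold change of EPHA4 was 0.56 ± 0.20 (SE, adjusted p = 0.0219), a rise of 47.3% with an interval from 1.11-fold to 1.96-fold. EPHA4 no longer passed when WT replicate 3 (adjusted p = 0.109), KO replicate 1 (0.0741) or KO replicate 2 (0.0556) was left out, or with cyclic loess (0.111). Over all alternatives its adjusted p ran from 0.0129 to 0.111. The antisense gene AC079834.2 shares 1697 bases with EPHA4 on the other strand and had 46 counts in all against 397 for EPHA4, so the EPHA4 counts are uncertain to that extent. Among genes of 1 to 4 CPM, 32% were called higher and 7.87% lower.

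EPHA1, the receptor that gave the family its name, was not distinguishable between the groups. EPHA1 (ENSG00000146904, chromosome 7, 143390289 to 143408892, minus strand) was at 30.1, 29.02 and 32.1 CPM in the WT-labelled libraries and 31.2, 31.8 and 33.2 CPM in the knockout-labelled libraries. The groups overlapped, and the log2 fold change was 0.08 with a 95% interval of -0.06 to 0.22 (adjusted p = 0.332). The last 823 bases of EPHA1 overlap ZYX on the other strand, and the library kit does not mark strand. ZYX had 18352 counts in all against 4692 for EPHA1 and was lower (log2 fold change -0.31), so the EPHA1 counts are uncertain to that extent.

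Of the B-class receptors, EPHB2 and EPHB3 were higher and EPHB4 was not. EPHB2 and EPHB3 bind ephrin-B ligands and are known from the intestinal crypt, where they help to position cells. EPHB3 (ENSG00000182580, chromosome 3, 184561784 to 184582409, plus strand) was at 23.8, 29.3 and 27.5 CPM in the WT-labelled libraries and 37.8, 39.1 and 37.2 CPM in the knockout-labelled libraries. The knockout-labelled libraries lay close together and all above the WT-labelled libraries, of which replicate 1 was lowest. EPHB3 rose by 41.7% (log2 fold change 0.50 ± 0.07, SE, adjusted p = 3.36e-06).

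EPHB2 (ENSG00000133216, chromosome 1, 22710839 to 22921500, plus strand) was at 47.0, 55.1 and 51.8 CPM in the WT-labelled libraries and 71.0, 68.4 and 62.5 CPM in the knockout-labelled libraries. These groups did not overlap either, and EPHB2 rose by 31% (log2 fold change 0.39 ± 0.06, SE, adjusted p = 1.15e-05). EPHB4, the receptor for ephrin-B2 that is best known from vessels, was the second most abundant receptor per length. EPHB4 (ENSG00000196411, chromosome 7, 100802565 to 100827521, minus strand) was at 252, 267.8 and 262.1 CPM in the WT-labelled libraries and 262.6, 272.1 and 260.7 CPM in the knockout-labelled libraries. The groups overlapped, and the interval of the difference was narrow, from 0.96-fold to 1.08-fold (adjusted p = 0.642). With cyclic loess EPHB4 was called higher (log2 fold change 0.14, adjusted p = 0.00553). EPHB4 shares 702 bases with SLC12A9 on the other strand, which had 6789 counts against 39456 for EPHB4. SLC12A9 was lower (log2 fold change -0.29, adjusted p = 0.000456), so the EPHB4 counts are uncertain to that extent.

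Among the ephrin-A ligands, EFNA1 was higher and EFNA5 was not. EFNA1, the gene of ephrin-A1 and thus of a ligand of EPHA2, lies at chromosome 1, 155127460 to 155134857, plus strand (ENSG00000169242). It was at 21.4, 22.5 and 24.0 CPM in the WT-labelled libraries and 30.2, 31.5 and 31.1 CPM in the knockout-labelled libraries. The groups stood clearly apart, with a rise of 36.9% (log2 fold change 0.45 ± 0.07, SE, adjusted p = 7.97e-06). EFNA4 and EFNA3, which encode further ephrin-A ligands, lie beside EFNA1 on the same strand. Both were also higher, EFNA4 with a log2 fold change of 0.30 ± 0.08 (SE, adjusted p = 0.00384) and EFNA3 with 0.78 ± 0.15 (8.74e-05). Of the 195 other tested genes within 5 Mb of EFNA1, 69 were higher and 62 lower, with a median log2 fold change of 0.02. The shares over all tested genes were 26.7% higher and 25.9% lower, so calls in both directions were more frequent near EFNA1.

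EFNA5, the gene of ephrin-A5, lies on chromosome 5 (107376889 to 107670895, minus strand, ENSG00000184349), whose 781 tested genes had a median log2 fold change of -0.20. EFNA5 was at 19.9, 22.6 and 21.7 CPM in the WT-labelled libraries and 21.6, 21.0 and 22.3 CPM in the knockout-labelled libraries. The groups overlapped fully, and the log2 fold change was 0.02 with a 95% interval of -0.14 to 0.17 (adjusted p = 0.881). The 26 other tested genes within 5 Mb of EFNA5 had a median of 0.06, with 6 higher and 10 lower (26.7% and 25.9% over all tested genes).

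Among the ephrin-B ligands, EFNB2 was higher and EFNB1 was not. EFNB2, the gene of ephrin-B2 (ENSG00000125266, chromosome 13, 106489731 to 106535662, minus strand), was at 106, 111 and 115 CPM in the WT-labelled libraries and 144.1, 140.7 and 134.2 CPM in the knockout-labelled libraries. All knockout-labelled libraries lay above all WT-labelled ones. The rise was 26.5% (log2 fold change 0.34 ± 0.05, SE, adjusted p = 1.29e-06).

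EFNB1, the gene of ephrin-B1 on the X chromosome (68828997 to 68842147, plus strand, ENSG00000090776), was at 183, 182 and 194 CPM in the WT-labelled libraries and 199, 197 and 176 CPM in the knockout-labelled libraries. KO replicate 3 was the lowest of all 6 libraries and KO replicate 1 the highest, so the groups overlapped. The interval ran from 0.96-fold to 1.10-fold (adjusted p = 0.562), and with cyclic loess EFNB1 was called higher (log2 fold change 0.14, adjusted p = 0.0162).

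Levels of different genes were compared per length, as CPM divided by the kilobases (kb) of merged exons. On this scale EPHA2 stood far above the others, at 216 ± 7.07 CPM per kb in the WT-labelled libraries. EFNB1 (56.2 ± 1.91), EPHB4 (40.5 ± 1.25), EFNB2 (22.0 ± 0.866) and EFNA1 (8.92 ± 0.518) followed. EPHA1 (6.43 ± 0.333) and EPHB3 (5.92 ± 0.614) came next and their values overlapped, as did those of EPHB2 (4.10 ± 0.325) and EFNA5 (3.75 ± 0.249). EPHA4 was lowest (0.282 ± 0.0541 CPM per kb). In the knockout-labelled libraries the order was the same except that EPHB3 (8.39 ± 0.210 CPM per kb) stood above EPHA1 (6.78 ± 0.219), and no neighbours in the order overlapped. Merged exons include rarely used ones, so a gene with a long merged length such as EPHB2 (12516 bases) is placed lower than its main transcript alone would be.

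The make-up of the family differed between the groups on this scale. EPHA2 made up 79.9%, 77.6% and 78.7% of all Eph receptor transcripts in the WT-labelled libraries and 71.9%, 72.2% and 72.6% in the knockout-labelled libraries. Over the same libraries the share of EPHB4 went from 14.8% ± 0.718 to 17.9% ± 0.149 (SD, n = 3 each), though its level was within the spread of the replicates. The 6 receptor genes described here accounted for 99.7% ± 0.0433 and 99.3% ± 0.0667 of receptor transcripts. The level of EPHA2 was 24.3 ± 1.85 times that of EFNA1 in the WT-labelled libraries and 13.6 ± 0.103 times in the knockout-labelled libraries. Among ephrins, EFNB1 held 53.7% ± 0.746 and 47.7% ± 1.38 of transcripts, and EFNB2 21.0% ± 0.217 and 23.1% ± 0.179. The level of EFNB1 itself was 56.2 ± 1.91 and 57.6 ± 3.78 CPM per kb and was not called different. Summed over the family, receptor transcripts went from 274 ± 5.11 to 230 ± 4.48 CPM per kb, and ephrin transcripts from 105 ± 3.30 to 121 ± 4.54 CPM per kb. The ratio of receptors to ephrins was 2.62 ± 0.102 and 1.91 ± 0.0747. These sums and ratios are given as descriptions, with no test.

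**Figure D2:**
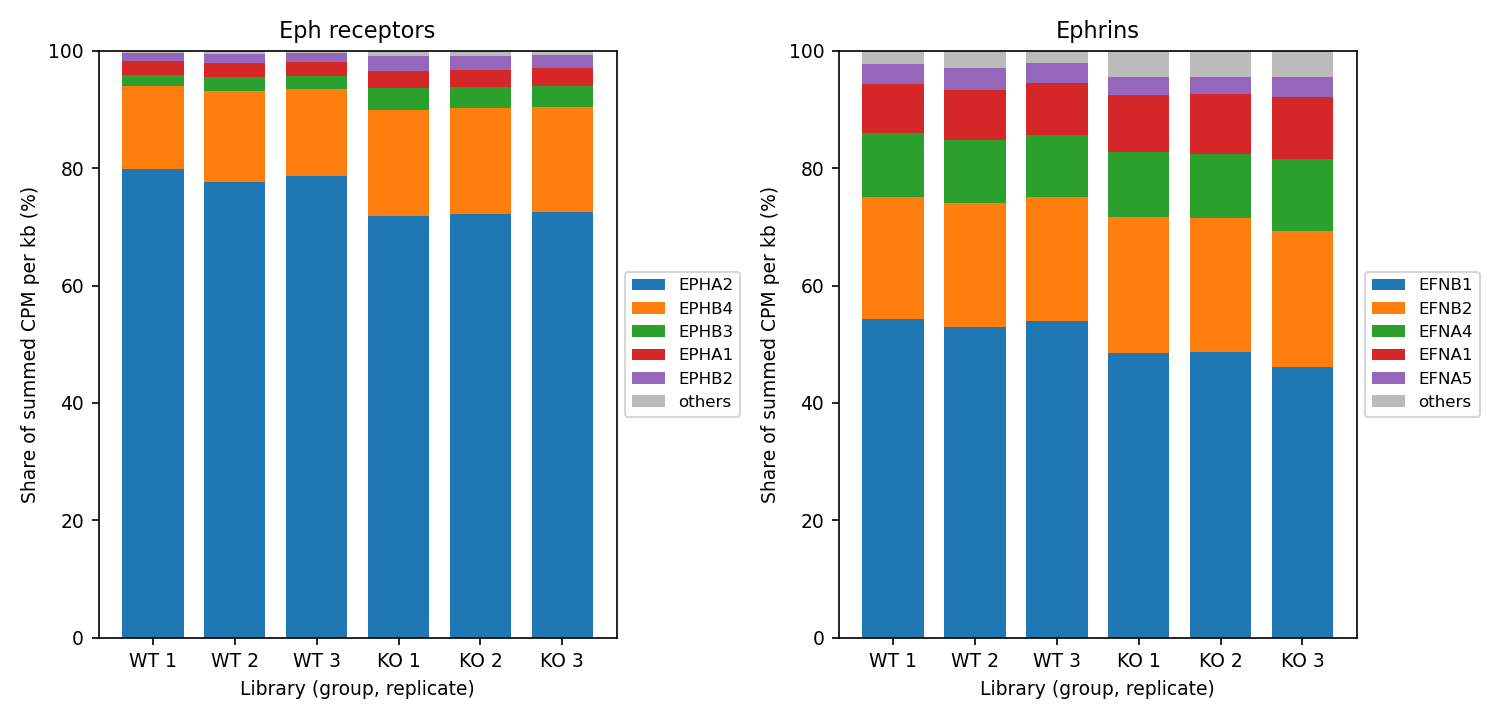
Share of each gene in the summed CPM per kb of all Eph receptors (left) and all ephrins (right), in percent, with 1 stacked bar per library. EPHA2 takes 77.6% to 79.9% of the receptor bar in the WT-labelled libraries and 71.9% to 72.6% in the knockout-labelled libraries, and EFNB1 is the largest part of the ephrin bar in every library.

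The other 12 family genes were mostly scarce. EFNA4, at 14.2 ± 0.210 CPM in the WT-labelled libraries and 17.4 ± 0.431 CPM in the knockout-labelled libraries, was the only one of them over 10 CPM. EPHA8 and EPHB1, with at most 6 counts in any library, were not tested. Of the 10 tested, EPHA3, EPHA6, EPHA10, EPHB6, EFNA2, EFNA3, EFNA4 and EFNB3 were higher, and EPHA5 and EPHA7 did not pass. The share called higher was 80% here and 26.7% over all tested genes. Among all tested genes under 1 CPM it was 20.3%, and at 1 to 4 CPM 32%. For EPHA10, EPHB6, EFNA2 and EFNB3 the WT-labelled libraries did not all reach the minimum of the low-count filter. These genes were tested because of the knockout-labelled libraries, so their number supports nothing. EFNB3, the gene of ephrin-B3, went from 3, 0 and 1 counts to 11, 26 and 22 counts. EPHA10, which encodes a receptor thought to lack kinase activity, went from 8, 13 and 3 counts to 36, 29 and 28 counts.

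Among the family genes that passed the filter in all 6 libraries, EPHA3 was at 14, 39 and 22 counts in the WT-labelled libraries and 48, 78 and 57 in the knockout-labelled libraries (log2 fold change 1.31 ± 0.30, SE, adjusted p = 0.000664). EPHA6 was at 65, 65 and 42 counts and 66, 104 and 98 counts (0.66 ± 0.19, adjusted p = 0.00454). EPHA5 had a value below 0, -0.63 with a 95% interval of -1.34 to 0.08 (adjusted p = 0.131), and passed only with cyclic loess (adjusted p = 0.0235). EPHA7 was at 0.23 with an interval of -0.39 to 0.85. Across all genes tested, the median log2 fold change was 0.22 under 1 CPM and 0.26 at 1 to 4 CPM, the range that holds most of these genes.

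**Figure D3:**
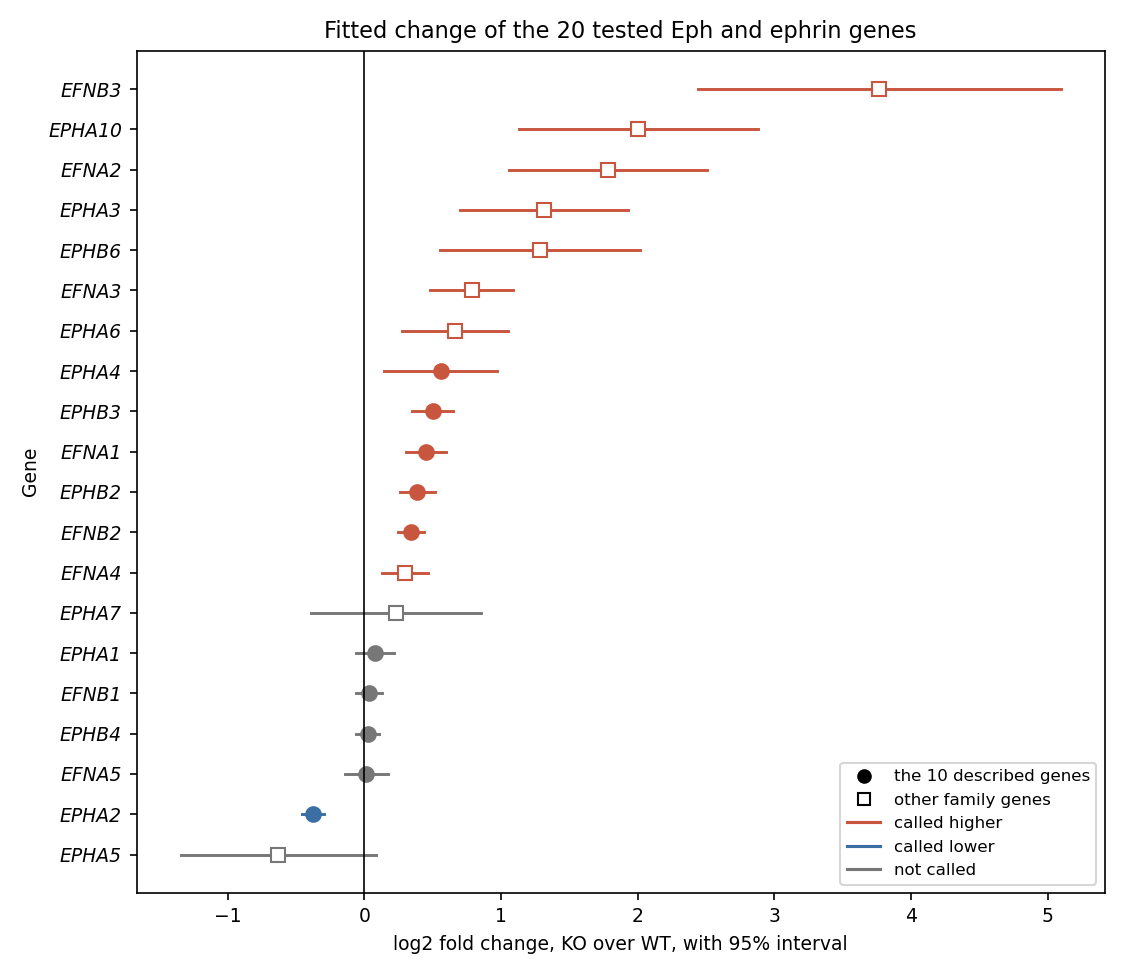
Fitted log2 fold change (knockout over WT, horizontal axis) with its 95% interval for the 20 tested family genes, circles for the 10 described genes and open squares for the others, red where called higher, blue where called lower and grey where not called. The 10 genes lie between -0.38 (EPHA2) and 0.56 (EPHA4), and EFNB3, which had 3, 0 and 1 counts in the WT-labelled libraries, lies highest.

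Genes that act downstream of Eph receptors were called about as often as tested genes at large. Of 34 forward-signalling genes 31 were tested, 7 higher (22.6%, against 26.7% of all tested genes) and 9 lower (29%, against 25.9%), with a median log2 fold change of -0.05. The adaptor GRB7, which binds activated receptor tyrosine kinases, rose most, from 17.1 to 39.3 CPM (log2 fold change 1.20 ± 0.08, SE, adjusted p = 1.97e-11). The adaptor NCK1 (0.41, adjusted p = 4.49e-06) was also higher. The tyrosine kinase ABL2 fell (-0.51, adjusted p = 2.82e-07), as did the Rac GTPase-activating protein CHN1 (-0.44, adjusted p = 0.0226) and the serine/threonine kinase ROCK2 (-0.33, adjusted p = 8.38e-06). CHN1 no longer passed when WT replicate 1 (adjusted p = 0.152) or KO replicate 2 (0.0717) was left out, and its adjusted p ran from 0.00437 to 0.152 over its alternatives.

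Genes of reverse signalling were 6 higher and 3 lower of 12 tested, from a list of 13, with a median of 0.12. These are 50% and 25% of the list, against 26.7% and 25.9% of all tested genes. The polarity proteins PARD6A (1.09, adjusted p = 4.47e-06) and PARD6B (0.40, adjusted p = 0.00189), and RGS3 (0.45, adjusted p = 0.000351), a regulator of G-protein signalling that binds ephrin-B tails, were higher. The phosphatase PTPN13 (-0.35, adjusted p = 0.000782), the scaffold GIT1 (-0.27, adjusted p = 6.84e-05) and caveolin-1, CAV1 (-0.15, adjusted p = 0.00248), were lower. CAV1 did not pass under cyclic loess (adjusted p = 0.929, the highest of 8.85e-05 to 0.929 over its alternatives).

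Genes that cleave, dephosphorylate or degrade the family's proteins were 7 higher and 4 lower of 16 tested, with a median of 0.14. That is 43.8% and 25%, where 26.7% and 25.9% of all tested genes were called. The rhomboid protease RHBDL2, known to cleave ephrin-B3, rose from 2.91 to 8.18 CPM (log2 fold change 1.50 ± 0.17, SE, adjusted p = 6.14e-08). The ubiquitin ligase CBLB (0.80, adjusted p = 4.97e-09) and the receptor-type phosphatase PTPRJ (0.58, adjusted p = 0.000383) were higher. The matrix protease MMP14, which can cut EPHA2, fell from 473 to 348 CPM (-0.44 ± 0.04, SE, adjusted p = 1.89e-09). Cyclic loess kept this call with a smaller log2 fold change of -0.31. Among tested genes over 64 CPM, the range that holds MMP14, 49.9% were called lower and 22% higher. CBL (-0.26, adjusted p = 0.00145), a ubiquitin ligase of activated receptors, and the phosphatase PTPN1 (-0.17, adjusted p = 0.00201) were lower too. PTPN1 did not pass under cyclic loess (adjusted p = 0.261, the highest of 0.000206 to 0.261 over its alternatives). ADAM10, a protease that sheds ephrins, was outside the 3 largest changes and was chosen after its values were seen: it was at 176 and 214 CPM and was higher (0.28, adjusted p = 4.09e-06).

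**Figure D4:**
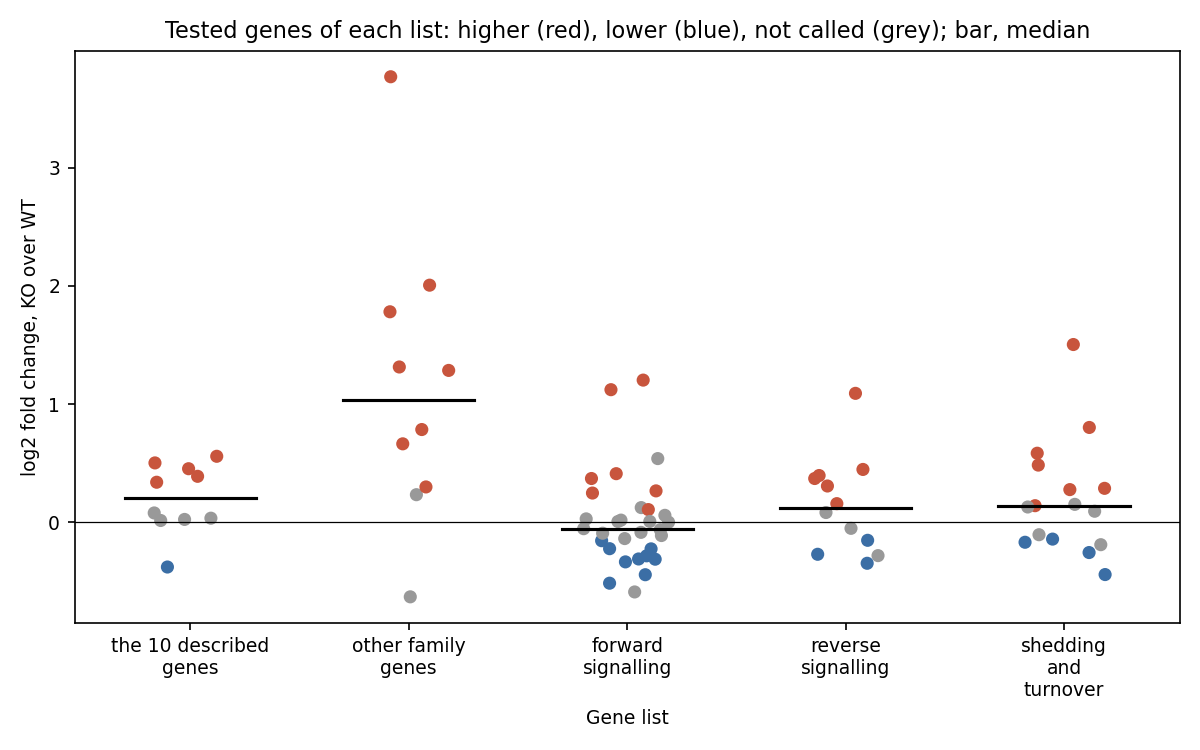
Log2 fold change (knockout over WT, vertical axis) of each tested gene in the 5 lists, red where called higher, blue where called lower and grey where not called, with a bar at the list's median. The forward-signalling list has 7 red and 9 blue points around a median of -0.05.

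By Pearson correlation of log2 levels over the 6 libraries, the protein-coding genes of at least 10 CPM most like EPHA2 were MTSS1L (r = 0.999), CDH24 (0.999) and NUFIP2 (0.999). As many as 230 of the 9434 genes compared had r over 0.99 with EPHA2. Those most like EPHA4, which has the largest log2 fold change among the called genes of the 10, were SEPSECS (r = 0.993), OSBPL9 (0.985) and ZNF444 (0.981). These correlations rest on the same 6 libraries in 2 groups and are descriptions.

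The authors' deposited table gives a log2 fold change of -0.39 for EPHA2, 0.49 for EPHB3, 0.38 for EPHB2, 0.44 for EFNA1 and 0.33 for EFNB2, with adjusted p-values from 3.49e-26 (EPHA2) to 2.7e-06 (EFNA1). In the authors' deposited table EPHA4 is at 0.55 with an adjusted p of 0.0921 and does not pass.

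**Figure D5:**
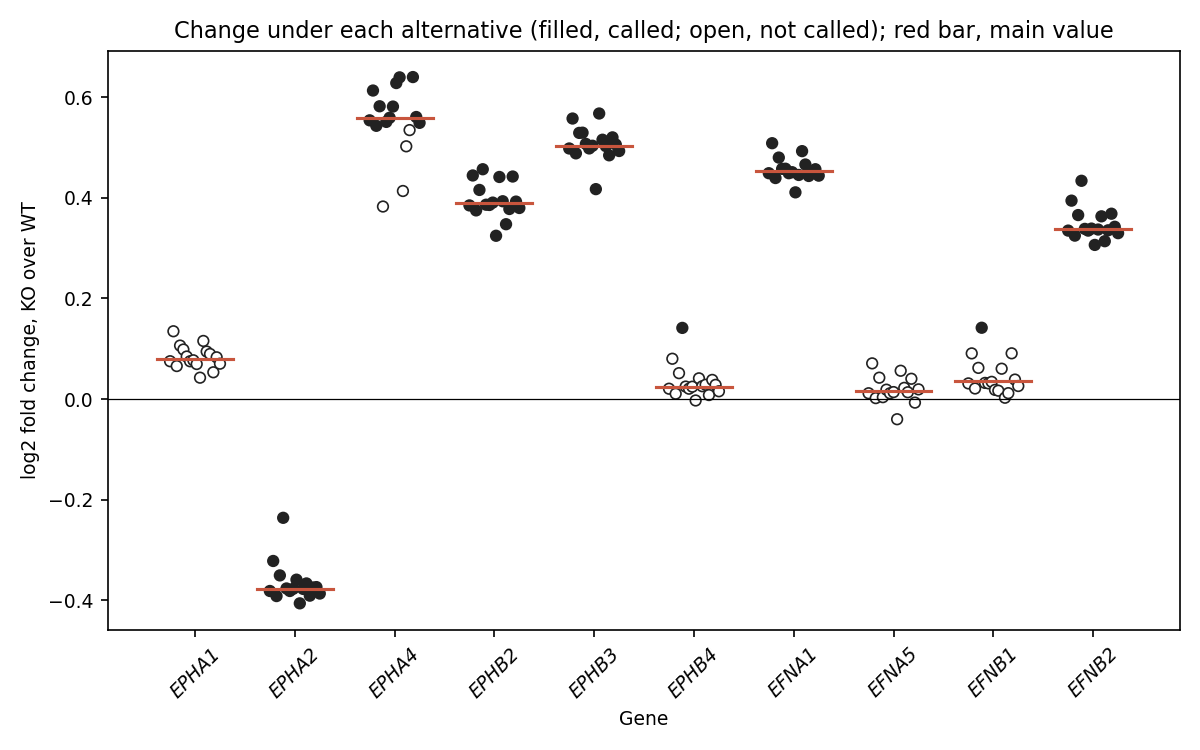
Log2 fold change (knockout over WT, vertical axis) of each of the 10 genes under each alternative, filled where called and open where not, with a red bar at the reported value. EPHA2 lies between -0.41 and -0.24 and is filled throughout, EPHA4 has 4 open points, and EPHB4 and EFNB1 have 1 filled point each, from cyclic loess.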

How the data were processed

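Total RNA was made into libraries with the NEBNext Ultra kit, per the labels' protocols. The submitters' processing notes name fastp, HISAT2, STAR and DESeq and the builds GRCh38 and hg38. What counted the reads, with which strand setting, is not given in the sources used here. The authors deposited raw read counts per gene, whose 58735 genes have GENCODE 29 coordinates. A second table deposited by the authors holds the same counts for 29015 genes, normalised signal and FPKM values (not used in results), and the authors' log2 fold changes and p-values.

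Groups came from the genotype label. The test was run in edgeR 4.0.16 (R 4.3.3) with TMM factors, filterByExpr (minimum count 10, total 15), group as the only term, glmQLFTest, two-sided. The step was tested on simulated data in which few genes changed, and none that were scarce. That setting differs from these data. CPM are TMM-scaled, as mean ± SD, and intervals are 95%. limma 3.58.1 and DESeq2 1.42.0 served the alternatives. Libraries of a group differed beyond sampling noise (chi-square per degree of freedom 2.43 to 6.27).

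The 10 genes and all lists were chosen with earlier results of these data known. Named genes were the 10, MUC16, other family genes, overlapping genes, and up to 3 called genes per direction in each pathway list; 1 of the latter is not reported here.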

Additional observations from a re-analysis of the deposited data

How the results depend on the processing

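Across 17 alternatives, 4 to 6 of the 10 genes were called higher (5 as reported) and 1 lower (as reported). EPHA2, EPHB2, EPHB3, EFNA1 and EFNB2 kept their calls in all 16 that give a fold change, and EPHA1 was called in none. Cyclic loess with limma-trend gave EPHA4 0.38 (adjusted p = 0.111), EPHB4 0.14 (called), EFNB1 0.14 (called) and EPHA7 -0.019; called 1 other family gene lower in place of 0; and called 2 shedding and turnover genes lower in place of 4. With the stricter filter (50 counts in 3 libraries) 3 other family genes were called higher in place of 8, as fewer were tested. Leaving out 1 library gave log2 fold changes of 0.41 to 0.64 for EPHA4, -0.0029 to 0.041 for EPHB4 and -0.040 to 0.056 for EFNA5. The sign of EPHB4 turned without WT replicate 1 (-0.0029), and that of EFNA5 without WT replicate 1 (-0.040) or KO replicate 3 (-0.0072); none of these was called. Other causes were not tested. The fit without chromosome 5 gives no value for EFNA5, and the stricter filter none for the scarcest genes. With the replicate number as a block, 5 of the 10 were higher and 1 lower, and 4270 and 4172 genes overall. Same-numbered libraries did not deviate together (correlations 0.00804, 0.0292 and -0.0441), so the numbers were not taken as pairs. Depth limits EPHA4 and most of the other family genes, with under 100 counts per library.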
